A study of Mus musculus with 6 samples.

Results

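Transcript levels of 44 genes of the cell cycle were compared in white fat of the epididymal pad, which lies beside the testis, between Pparg ldi/+ and wild-type mice. The genes were chosen by name: cyclins, cyclin-dependent kinases (CDKs) and their inhibitors, the factors that copy DNA, and the machinery of mitosis. Of the 44, 43 were found among 18193 genes on the array. No probe set was annotated to Ccnb1 alone, and it was not analysed here. Each gene was read from its brightest probe set. Of the 43, 36 were bright enough to be tested, among 11201 genes in all. The 7 too dim to be tested were Ccne2, Cdc6, Tyms, Bub1, Aurkb, Kif11 and Kif20a.

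The mutant mice were 3 Pparg ldi/+ males, which carry 1 copy of the ldi allele of Pparg and 1 wild-type copy, and the controls were 3 litter-matched wild-type males. All were 10 weeks old, on a mixed C57BL6;129Sv background, with 1 mouse on each Affymetrix MOE430v2.0 array. The labels tie ldi to lipodystrophy, a loss of body fat. They name no treatment, and how the allele was made was not given in the sources used here.

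Cells enter division when D-type cyclins with CDK4 or CDK6, then E-type cyclins with CDK2, release E2F transcription factors from the retinoblastoma proteins. E2F targets include the replicative helicase subunits (the Mcm genes) and the enzymes that supply nucleotides. Later, cyclin A and cyclin B with CDK1 drive mitosis, whose genes are switched on together. Mature adipocytes are largely outside the cycle, while stromal progenitors, vessel cells and leukocytes of the fat pad can divide. The signals come from whole pads, so more cells of a dividing type and more RNA per cell cannot be told apart.

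The arrays were near a common scale, with trimmed means of 201 to 236, and correlated across tested genes at a mean r of 0.972 to 0.980 within a genotype and 0.888 to 0.906 between genotypes. The points of these correlations are genes, not replicates. Adipoq, the adiponectin gene and a marker of fat, was bright on all arrays, at 9887 to 14875 in Pparg ldi/+ and 25739 to 28333 in wild type. This does not show which pad was taken, and all 9 adipocyte markers tested had lower signals in Pparg ldi/+. Of 20 markers of epididymal epithelium listed, 13 were on the array, and their summed signal was 24748, 33990 and 938 on Pparg ldi/+ arrays 1, 2 and 3 and between 971 and 1674 in wild type. Of 13 markers of germ cells and sperm, the summed signal was 9301 on Pparg ldi/+ array 2, 2761 and 2917 on arrays 1 and 3, and between 1456 and 2196 in wild type. The results below are therefore given also with array 3 alone standing for Pparg ldi/+, a fit that assumes this array to vary like the wild-type ones and that calls fewer genes of any kind.

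Most of the cell cycle genes tested had higher signals in Pparg ldi/+ fat, and those that rose copy DNA or act in mitosis for the most part. Of the 36 tested, 17 rose, 2 fell and 17 did not pass the threshold. "Rose" and "fell" mean an adjusted p under 0.05 in limma, with Benjamini-Hochberg adjustment over all 11201 genes. The 17 that rose are 47.2% of the 36, where 16.3% of all tested genes rose. The 2 that fell are 5.56%, where 16.4% of all tested genes fell. The median log2 difference was 0.58 over the 36 genes and -0.0043 over all tested genes. In the plot of genotype differences, most points lie to the right of 0.

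**Figure D1:**
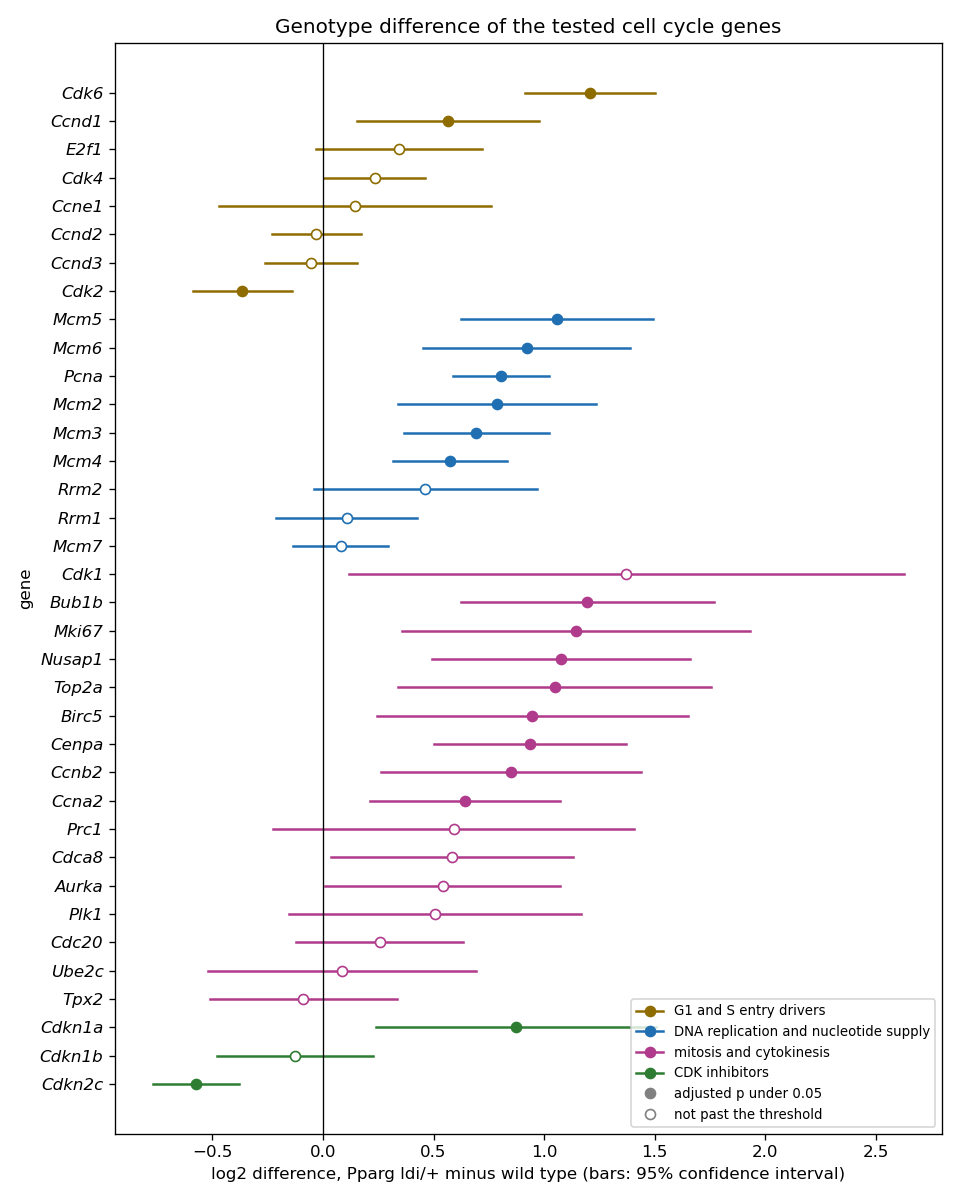
Log2 difference of each tested cell cycle gene, Pparg ldi/+ minus wild type (x axis), with its 95% confidence interval from limma. Genes are grouped by role and filled points passed an adjusted p of 0.05. The replication genes Mcm5, Mcm6, Pcna, Mcm2, Mcm3 and Mcm4 and 8 mitotic genes are filled and to the right of 0, and Cdk2 and Cdkn2c are filled and to the left.

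Of the 36 genes, Cdk1, Bub1b, Aurka and Plk1 passed the brightness limit only through their Pparg ldi/+ signal, so the 36 do not stand for all 43. Over all 43 genes on the array, with no limit, 37 differences were positive and the median was 0.56. In a fit of all 18193 genes with no limit, 10 of the 43 rose and 2 fell, where 9.73% of the 18193 rose and 9.2% fell. The groups did not overlap in 19 of the 36 tested genes (52.8%), a share near the 47.6% of all tested genes. With Pparg ldi/+ array 3 alone, 2 of 33 tested cell cycle genes rose (Cdk6 and Pcna) and 1 fell (Cdkn2c), where 6.54% of all genes rose and 7.94% fell. The 2 of 33 that rose are a share near that of all genes. The median of those 33 log2 differences was 0.58.

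Of 8 tested genes that start the cycle, Cdk6 and Ccnd1 rose and Cdk2 fell, while Ccnd2, Ccnd3, Cdk4, Ccne1 and E2f1 did not pass. These shares, 25% higher and 12.5% lower, are near the 16.3% and 16.4% of all tested genes. Cdk6, a kinase partner of the D-type cyclins, had scaled signals of 1322, 1525 and 1355 in Pparg ldi/+, against 668, 487 and 621 in wild type. All 3 Pparg ldi/+ arrays lay above all wild-type arrays, by 2.31-fold on average (log2 1.21, SE 0.128, limma adjusted p = 0.000181). Folds and log2 values are differences of log2(signal + 32), so those of dim genes are understated. A dimmer probe set of Cdk6 differed by 0.74, and another, below the brightness limit, by 0.027.

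Ccnd1, the cyclin D1 gene, had signals of 2450, 2363 and 1687 in Pparg ldi/+ and 1374, 1806 and 1190 in wild type. Pparg ldi/+ array 3 lay below wild-type array 2, so the groups overlapped, and the log2 difference was 0.56 (SE 0.18, limma adjusted p = 0.0406). Its other probe sets differed by 0.63 and 0.68. The call of Ccnd1 ended without Pparg ldi/+ array 1 (log2 0.47) or 2 (0.49), without wild-type array 1 (0.53) or 3 (0.43), with array 3 alone (0.23), with no brightness limit and without limma's intensity trend.

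The other D-type cyclins gave small differences that did not pass. Ccnd2 averaged 7462 ± 273 in Pparg ldi/+ and 7644 ± 848 in wild type (SD, n = 3 each), with a log2 difference of -0.029 and a 95% confidence interval of -0.23 to 0.17. Ccnd3 averaged 2457 ± 132 in Pparg ldi/+ and 2558 ± 253 in wild type (SD, n = 3 each), with a log2 difference of -0.054 and an interval of -0.26 to 0.16. Cdk4, the other partner of the D-type cyclins, had signals of 942, 786 and 824 in Pparg ldi/+ and 719, 705 and 723 in wild type. The groups of Cdk4 did not overlap, but its log2 difference of 0.23 did not pass (limma adjusted p = 0.108). E2f1, which encodes an activating E2F factor, was at 0.34 (limma adjusted p = 0.147) and passed without wild-type array 1 (0.49). Ccne1, a cyclin partner of CDK2, was at 0.14 with an interval of -0.47 to 0.76, and Ccne2 was too dim to test.

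Cdk2, which acts at the start of DNA synthesis, fell. Its signals were 655, 670 and 581 in Pparg ldi/+, against 855, 812 and 810 in wild type. No Pparg ldi/+ array reached the wild-type range, and the log2 difference was -0.36 (SE 0.098, limma adjusted p = 0.0209). The call of Cdk2 ended without Pparg ldi/+ array 1 (-0.39) or 3 (-0.30), without wild-type array 1 (-0.34), with array 3 alone (-0.48), and with the deposited values left unscaled (-0.30).

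**Figure D2:**
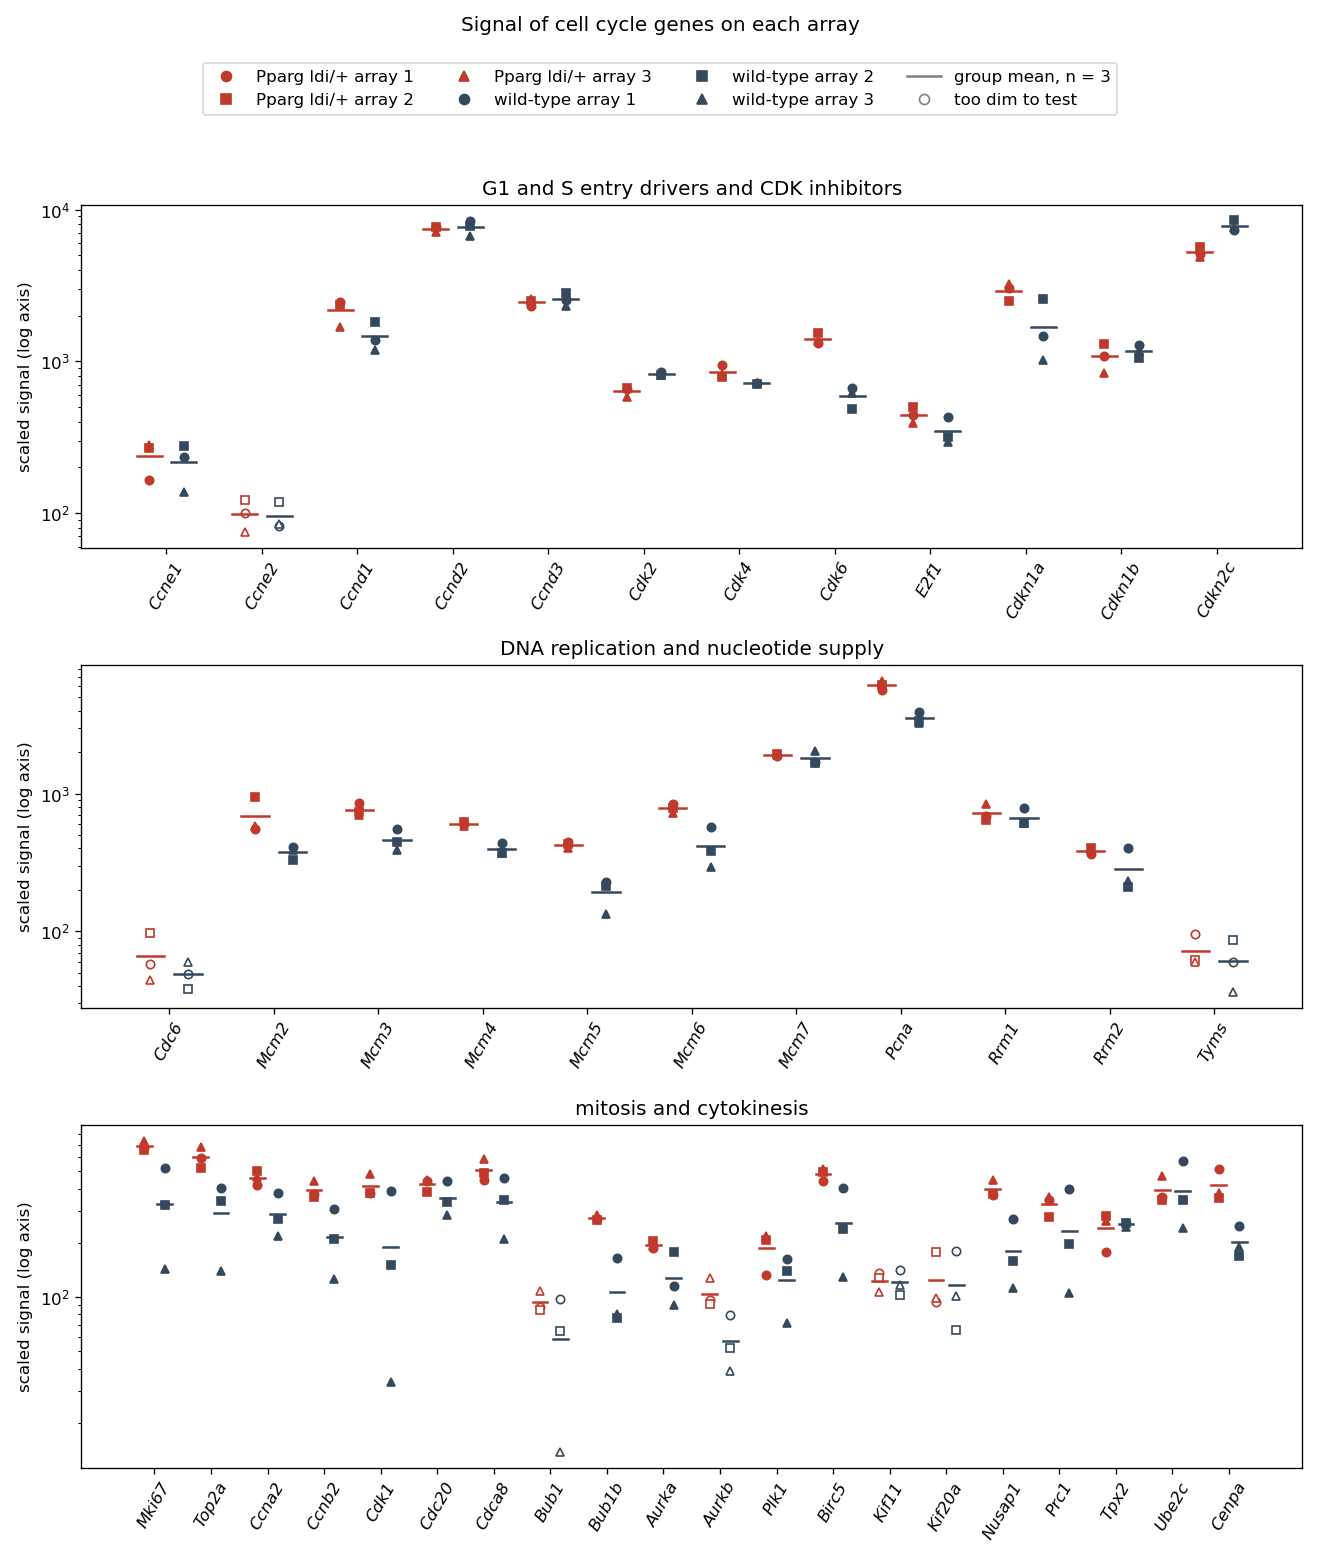
Scaled signal (log axis) of 43 cell cycle genes on each array, with Pparg ldi/+ left of wild type for each gene, marker shapes for array numbers and lines for means of 3 arrays. Open markers are genes too dim to test. For Cdk6, Pcna and Bub1b the groups stand apart, and for many mitotic genes the wild-type arrays are spread more widely than the Pparg ldi/+ arrays.

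Most of the replication genes tested rose. Of 9 tested, 6 rose (66.7%) and 0 fell, where 16.3% of all tested genes rose and 16.4% fell. At an unadjusted limma p under 0.05 the counts were also 6 and 0. Their median log2 difference was 0.69. The 6 were Pcna and 5 of the 6 Mcm genes listed, and their groups did not overlap in any of the 6. Groups did not overlap in 47.6% of all tested genes. Pcna encodes the sliding clamp that holds DNA polymerase on its template. Its signals were 5686, 6144 and 6603 in Pparg ldi/+, against 3929, 3367 and 3231 in wild type. The lowest Pparg ldi/+ array was above the highest wild-type array, and Pcna rose 1.75-fold (log2 0.81, SE 0.094, limma adjusted p = 0.000313).

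The Mcm2 to Mcm7 genes encode the ring of the replicative helicase that unwinds DNA. Mcm5 had signals of 442, 432 and 403 in Pparg ldi/+, against 229, 212 and 134 in wild type, and rose 2.08-fold (log2 1.06, SE 0.190, limma adjusted p = 0.00297). Mcm6 had signals of 842, 792 and 725 in Pparg ldi/+, against 568, 382 and 292 in wild type, and rose 1.89-fold (log2 0.92, SE 0.205, limma adjusted p = 0.00883). For both genes the Pparg ldi/+ arrays were close together and all above wild type. Mcm3 had signals of 849, 737 and 704 in Pparg ldi/+, against 553, 449 and 387 in wild type, a log2 difference of 0.69 (limma adjusted p = 0.00625). Mcm4 had signals of 599, 622 and 580 in Pparg ldi/+, against 437, 372 and 370 in wild type, a log2 difference of 0.58 (limma adjusted p = 0.00472). Neither gene's groups overlapped. With Pparg ldi/+ array 3 alone the log2 differences did not pass, at 0.99 for Mcm5, 0.81 for Mcm6, 0.58 for Mcm3 and 0.53 for Mcm4.

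Mcm2 had signals of 556, 938 and 578 in Pparg ldi/+, against 413, 329 and 391 in wild type (log2 0.79, SE 0.197, limma adjusted p = 0.0151). The high value was on Pparg ldi/+ array 2, the array with the most germ cell signal, and the part of those cells in it was not tested. Without that array the log2 difference was 0.55 and still passed, and without wild-type array 2 it was 0.70 and did not. The difference was 0.58 with Pparg ldi/+ array 3 alone. A second probe set of Mcm2 averaged 490 ± 24.8 in Pparg ldi/+ and 328 ± 15.3 in wild type (SD, n = 3 each), a difference of 0.54. In the probe set read, the SD over the Pparg ldi/+ arrays was 215, so the second did not repeat the high value of array 2.

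Mcm7, the remaining subunit, did not pass. Its signals were 1867, 1932 and 1890 in Pparg ldi/+ and 1695, 1668 and 2035 in wild type, with a log2 difference of 0.080 and a 95% confidence interval of -0.13 to 0.30. Its other 3 probe sets differed by 0.15, 0.17 and -0.040. The difference between Mcm7 and the other Mcm genes was not itself tested.

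Genes of nucleotide supply did not pass. Rrm1, the large subunit of ribonucleotide reductase, was at 0.11 (limma adjusted p = 0.605). Rrm2, its small subunit, had signals of 365, 404 and 388 in Pparg ldi/+ and 406, 209 and 231 in wild type. Wild-type array 1 was the highest of the 6 arrays, and Rrm2 passed without it (log2 0.73, against 0.46 with all arrays). The other probe sets of Rrm2 differed by 0.64 and 0.56. Tyms, the thymidylate synthase gene, and Cdc6, which loads the helicase, were too dim to test, with log2 differences of 0.19 and 0.25.

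The promoters of Mcm5 and Mcm6 are shown because both genes rose and both hold E2F-type words. Each is the 250 bases before the annotated start, from RefSeq on GRCm38.p6, written 5′ to 3′ on the gene's strand. That of Mcm5 lies at chr8:75109259-75109508 (plus strand) and that of Mcm6 at chr1:128359706-128359955 (minus strand). Capitals mark matches on either strand. The words searched were 3 of the E2F type, namely TTCGCGC, then the variant TTGGCGC and also the variant TTCCCGC. A further word was CCAAT, the box bound by NF-Y, and the last was TTTGAA, the core of the element of mitotic genes called CHR. Matches may overlap, as TTGGCGC does with the reverse of TTCGCGC and of CCAAT.
Mcm5: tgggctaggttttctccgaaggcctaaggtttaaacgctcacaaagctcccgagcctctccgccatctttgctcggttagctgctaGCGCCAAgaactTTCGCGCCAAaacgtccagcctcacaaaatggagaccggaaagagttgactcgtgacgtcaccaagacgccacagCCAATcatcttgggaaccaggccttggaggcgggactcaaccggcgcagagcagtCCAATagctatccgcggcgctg
Mcm6: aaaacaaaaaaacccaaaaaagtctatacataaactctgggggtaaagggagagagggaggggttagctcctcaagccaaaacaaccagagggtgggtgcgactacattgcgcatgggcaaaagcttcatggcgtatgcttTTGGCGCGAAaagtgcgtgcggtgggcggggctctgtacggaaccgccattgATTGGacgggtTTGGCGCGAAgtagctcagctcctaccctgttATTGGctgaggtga

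In Mcm6 the run of TTGGCGC and the reverse of TTCGCGC occurs at 2 places, and in Mcm5 TTCGCGC runs into the reverse of TTGGCGC. The table of promoters held 36 of the 44 genes, with 41 windows. Of the 5 windows of replication genes that rose, 2 (40%) held an E2F-type word, those of Mcm5 and Mcm6, and all 5 held CCAAT. At least 1 of the 3 E2F-type words was in 6 of 11 windows of replication genes (54.5%), in 3 of 18 windows of mitotic genes (16.7%), and in 6.69% of all 32851 windows of the same length. CCAAT was in 9 of the 11 replication windows (81.8%), against 33.8% of all windows. A match describes the letters and is not evidence of binding. Windows of genes that did not pass also held these words, such as Mcm7 and Rrm1, which have TTCCCGC and CCAAT.

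Mitotic genes were higher in Pparg ldi/+ fat as well, but with a wide spread in wild type. Of 16 tested, 8 rose (50%) and 0 fell, where 16.3% of all tested genes rose and 16.4% fell. At an unadjusted limma p under 0.05 the counts were 11 and 0, beside 2407 and 2392 of all 11201 tested genes. Of the 16, 4 passed the brightness limit only through their Pparg ldi/+ signal. The median log2 difference was 0.74. Mki67 encodes Ki-67, the protein used to mark dividing cells. Its signals were 669, 656 and 736 in Pparg ldi/+, against 517, 324 and 144 in wild type (log2 1.14, SE 0.344, limma adjusted p = 0.0331). The Pparg ldi/+ arrays were alike, the wild-type arrays spanned a more than 3-fold range, and the groups did not overlap.

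Top2a, the topoisomerase that untangles sister chromosomes, showed the same pattern, with 594, 520 and 681 in Pparg ldi/+, against 402, 341 and 140 in wild type (log2 1.05, SE 0.311, limma adjusted p = 0.0312). The other probe sets of Top2a were below the brightness limit and differed by -0.49 and -0.29. Bub1b, a spindle checkpoint kinase, had 272, 266 and 285 in Pparg ldi/+, against 165, 76.6 and 80.1 in wild type, and rose 2.29-fold (log2 1.20, SE 0.250, limma adjusted p = 0.00662). Cenpa, the histone of the centromere, had 513, 356 and 379 in Pparg ldi/+, against 249, 168 and 189 in wild type (log2 0.94, SE 0.190, limma adjusted p = 0.00564). In each of these 3 genes every Pparg ldi/+ array lay above every wild-type array.

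Nusap1, a spindle protein, had 367, 375 and 444 in Pparg ldi/+, against 269, 158 and 112 in wild type (log2 1.08, SE 0.256, limma adjusted p = 0.0119). Ccnb2, a mitotic cyclin, had 374, 361 and 442 in Pparg ldi/+, against 307, 210 and 126 in wild type (log2 0.85, SE 0.258, limma adjusted p = 0.0343). Both had wild-type array 1 closest to the Pparg ldi/+ range. Ccna2, the cyclin of S phase and early mitosis, had 418, 498 and 462 in Pparg ldi/+, against 380, 270 and 218 in wild type (log2 0.64, limma adjusted p = 0.0302), and its other probe set differed by 0.68. Birc5 is the survivin gene of the chromosomal passenger complex. Its signals were 438, 497 and 513 in Pparg ldi/+, against 403, 238 and 129 in wild type (log2 0.95, limma adjusted p = 0.0449). The call of Birc5 also ended under quantile normalisation (0.93), with array weights (0.77) and without the intensity trend. It ended too with probe sets averaged, although Birc5 has 1 probe set and its own difference stayed at 0.95. With the array number as a replicate block, the limma adjusted p was 0.0543 for Ccna2, 0.0564 for Ccnb2 and 0.0597 for Birc5, which ended these calls.

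Of the 8 mitotic calls, only those of Bub1b, Cenpa and Nusap1 held when any 1 array was left out. Their other probe sets were all below the brightness limit. These differed by -0.22 and 1.32 for Bub1b, -0.036 and -0.24 for Cenpa, and 0.24 for Nusap1. Bub1b itself passed that limit only through its Pparg ldi/+ signal. Leaving out a Pparg ldi/+ array 1, 2 or 3 gave log2 differences, none past the threshold, of 1.16, 1.17 and 1.10 for Mki67, 0.70, 0.58 and 0.64 for Ccna2, 0.88, 0.90 and 0.77 for Ccnb2, and 1.01, 0.93 and 0.90 for Birc5. The call of Top2a ended without Pparg ldi/+ array 1 (1.05) or 3 (0.95). Without wild-type array 2 the calls of Mki67 (1.21), Ccna2 (0.61), Ccnb2 (0.87) and Birc5 (0.96) ended. Without wild-type array 3 those of Ccna2 (0.47), Ccnb2 (0.56) and Birc5 (0.58) ended. With Pparg ldi/+ array 3 alone, none of the 8 mitotic calls held, and the median log2 difference of the 13 mitotic genes tested was 0.83. The 8 mitotic calls became 3 with no brightness limit and 5 without the intensity trend, which ended those of Mki67, Top2a and Birc5.

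Cdk1, the kinase of mitotic entry, had the largest difference of the mitotic genes tested and did not pass. Its signals were 379, 378 and 484 in Pparg ldi/+ and 387, 151 and 33.6 in wild type, so wild-type array 1 lay within the Pparg ldi/+ range (log2 1.37, SE 0.551, limma adjusted p = 0.0904). Without wild-type array 1 it passed at 2.02, and with the deposited values left unscaled at 1.16. Cdca8, of the chromosomal passenger complex, was at 0.58 (limma adjusted p = 0.0963). Its wild-type array 1, at 458, lay within the Pparg ldi/+ range, and Cdca8 passed without that array (0.81). Prc1, which bundles microtubules for cytokinesis, was at 0.59 and passed without wild-type array 1 (1.02). Aurka, the kinase of spindle poles, was at 0.54 and passed without wild-type array 2 (0.76).

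The remaining mitotic genes did not pass or were too dim to test. Plk1, a mitotic kinase, was at 0.51 (limma adjusted p = 0.220), and Cdc20, an activator of the anaphase-promoting complex, at 0.26 (limma adjusted p = 0.273). Ube2c, the ubiquitin-conjugating enzyme of that complex, had 359, 348 and 469 in Pparg ldi/+ and 571, 345 and 243 in wild type, where wild-type array 1 was the highest of the 6 (log2 0.086). Tpx2, a spindle assembly factor, was at -0.089 in the probe set read, while another probe set averaged 205 ± 25.9 in Pparg ldi/+ and 119 ± 61.3 in wild type (SD, n = 3 each), a difference of 0.72. Of the 4 mitotic genes too dim to test, Aurkb, a kinase of the passenger complex, had signals of 95.8, 91.1 and 127 in Pparg ldi/+ and 79.0, 52.3 and 38.8 in wild type, which did not overlap. Bub1, a checkpoint kinase, was at 0.59, and the kinesin genes Kif11 and Kif20a at 0.029 and 0.11.

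The promoters of Ccnb2 and Top2a are shown for the repeated CCAAT boxes of genes that rose, and that of Cdk2 for a gene that fell. They were taken in the same way, at chr9:70421555-70421804 (minus strand), chr11:99024190-99024439 (minus strand) and chr10:128705052-128705301 (minus strand), with the same words in capitals.
Ccnb2: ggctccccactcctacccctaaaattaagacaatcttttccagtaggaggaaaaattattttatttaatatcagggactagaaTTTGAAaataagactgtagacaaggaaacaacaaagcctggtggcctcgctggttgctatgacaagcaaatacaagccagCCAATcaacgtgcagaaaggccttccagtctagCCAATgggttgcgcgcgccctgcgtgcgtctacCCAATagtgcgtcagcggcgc
Top2a: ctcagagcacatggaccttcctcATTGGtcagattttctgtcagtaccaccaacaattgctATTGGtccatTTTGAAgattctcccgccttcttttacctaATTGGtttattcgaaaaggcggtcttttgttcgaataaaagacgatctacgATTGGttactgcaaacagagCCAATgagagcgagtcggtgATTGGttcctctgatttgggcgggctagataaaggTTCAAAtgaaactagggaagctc
Cdk2: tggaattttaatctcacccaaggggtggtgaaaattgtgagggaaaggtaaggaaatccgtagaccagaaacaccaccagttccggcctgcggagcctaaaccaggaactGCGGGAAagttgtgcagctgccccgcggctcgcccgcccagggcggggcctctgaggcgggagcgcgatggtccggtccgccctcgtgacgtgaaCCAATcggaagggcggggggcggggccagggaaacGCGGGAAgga

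In Ccnb2, 3 CCAAT boxes on the gene's strand end 82, 49 and 16 bases before the start. In Top2a, CCAAT or its reverse is found at 6 places and TTTGAA or its reverse at 2. CCAAT was in 16 of 18 windows of mitotic genes (88.9%), against 33.8% of all windows, and TTTGAA in 8 of the 18 (44.4%), against 16%. Among the 7 windows of mitotic genes that rose, 5 held CCAAT (71.4%) and 3 held TTTGAA (42.9%). Cdk2 holds 1 CCAAT and the reverse of TTCCCGC at 2 places. Windows of Birc5 and Nusap1, which rose, held none of these words.

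The wild-type arrays differed among themselves in these genes more than the Pparg ldi/+ arrays did. The SD of the log2 values was larger in wild type than in Pparg ldi/+ for 29 of the 36 genes (80.6%), against 60.7% of all tested genes. The median SD over the 16 mitotic genes was 0.16 in Pparg ldi/+ and 0.53 in wild type, and over all tested genes it was 0.12 in Pparg ldi/+ and 0.15 in wild type. Wild-type array 1 was the highest of the 3 wild-type arrays for 14 of the 16 mitotic genes (87.5%), against 29.6% of all tested genes. Wild-type array 3 was the lowest for 14 of the 16 (87.5%), against 32.3%. As the plot of group medians shows, the median mitotic deviation from the wild-type mean was 0.73, 0.74 and 0.81 on the Pparg ldi/+ arrays and 0.52, 0.023 and -0.54 on wild-type arrays 1, 2 and 3. For the replication genes it was 0.57, 0.65 and 0.58 on the Pparg ldi/+ arrays and 0.23, -0.070 and -0.11 on the wild-type arrays.

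**Figure D3:**
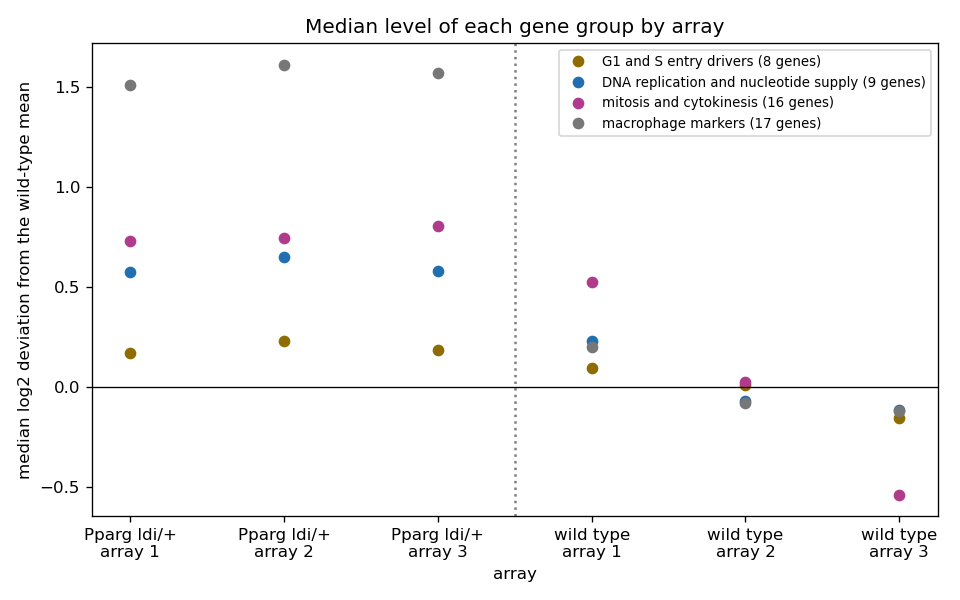
Median log2 deviation from the wild-type mean (y axis) of 3 cell cycle groups and of 17 macrophage markers on each array (x axis), Pparg ldi/+ on the left. The mitotic median is 0.73 to 0.81 on the Pparg ldi/+ arrays and 0.52, 0.023 and -0.54 on the wild-type arrays.

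Markers of other cell types moved with genotype too. Among all tested genes, 16.3% rose and 16.4% fell. All 17 macrophage markers rose, and their summed signal was 120062 to 122868 in Pparg ldi/+ and 45889 to 59430 in wild type, highest in wild type on array 1. Of 11 lymphocyte markers on the array, 4 were tested and 3 rose, with sums of 3004 to 4061 in Pparg ldi/+ and 833 to 1287 in wild type. Of 12 endothelial markers, 9 fell, with sums of 11876 to 13764 in Pparg ldi/+ and 23605 to 25630 in wild type. Of 11 stromal progenitor markers, 4 rose and 2 fell, with sums of 87155 to 93672 in Pparg ldi/+ and 78717 to 83625 in wild type. Of 8 mesothelial markers 5 fell, and of 9 adipocyte markers 8 fell. Of 3 erythroid markers on the array, 2 were tested, 0 passed in limma and 1 had an unadjusted p under 0.05. The part of these cells in the cell cycle results was not tested. Of the epididymal markers, 9 were tested and 4 rose. Of these 9, 6 passed the brightness limit only through their Pparg ldi/+ signal, so the limit favoured markers that rose. The same held for 1 of the 4 lymphocyte markers tested and 1 of the 3 germ cell markers tested. Of the germ cell markers, 3 were tested and 1 rose, Sycp3, a meiotic chromosome protein, with 2114, 1837 and 2326 in Pparg ldi/+, against 992, 1037 and 1125 in wild type. Sycp3 made up most of the germ cell sum of Pparg ldi/+ array 3, which lay above the wild-type range. The sperm protamine Prm1 had 189, 1619 and 152 in Pparg ldi/+, against 136, 121 and 273 in wild type, and was high on Pparg ldi/+ array 2.

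Of the 3 CDK inhibitors, 1 rose, 1 fell and 1 did not pass. Cdkn1a, the p21 gene that p53 induces, had 3037, 2484 and 3245 in Pparg ldi/+, against 1471, 2562 and 1026 in wild type (log2 0.87, SE 0.277, limma adjusted p = 0.0407). Wild-type array 2 lay above the lowest Pparg ldi/+ array. The call ended without Pparg ldi/+ array 1 (0.84), 2 (0.98) or 3 (0.79) and without wild-type array 1 (0.83) or 3 (0.57), with array 3 alone (1.03), with no brightness limit, without the intensity trend, with the replicate block, and with probe sets averaged (0.77). Cdkn2c, the p18 inhibitor of CDK4 and CDK6, had 5094, 5682 and 4889 in Pparg ldi/+, against 7370, 8481 and 7533 in wild type. The groups of Cdkn2c were well apart, and it fell 1.49-fold (log2 -0.58, SE 0.085, limma adjusted p = 0.00111), also with array 3 alone (-0.67). Cdkn1b, the p27 gene, was at -0.13 with a 95% confidence interval of -0.48 to 0.23.

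For each of these genes an exact two-sided permutation test of the 6 arrays can give no p below 0.1. Groups that do not overlap reach it, as for Cdk6, Pcna, Mki67 and Cdkn2c, while Ccnd1 and Cdkn1a gave p = 0.2 and Cdk1 p = 0.3 in that exact test.

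Other genes of the pathway moved in both directions. Among 29 other mitotic genes tested of 43, 8 rose and 2 fell, with a median log2 difference of 0.42. Of the 29, 9 passed the brightness limit only through their Pparg ldi/+ signal, so these counts do not stand for the whole list. Cdca3, which triggers mitotic entry, rose by 0.64 (limma adjusted p = 0.0125). Cks1b, a small CDK-binding subunit, fell by 0.37 (limma adjusted p = 0.0127), and Anln, the anillin of the cleavage furrow, fell by 0.71 (limma adjusted p = 0.0229). The calls of Cdca3 (0.27) and Anln (-0.47) ended with a gene's probe sets averaged, and that of Cks1b with unscaled values (-0.32). The call of Cks1b also ended without Pparg ldi/+ array 1 (-0.35), and that of Anln without Pparg ldi/+ array 2 (-0.64) or 3 (-0.73). With Pparg ldi/+ array 3 alone none of the 3 passed, at 0.60 for Cdca3, -0.38 for Cks1b and -0.69 for Anln.

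Among 34 other replication genes tested of 39 on the array, 8 rose and 2 fell, with a median of 0.12, and 3 of the 34 passed the brightness limit only through Pparg ldi/+. Cdt1, which loads the helicase, had 545, 472 and 644 in Pparg ldi/+, against 334, 240 and 208 in wild type (log2 1.01, limma adjusted p = 0.00335). Fen1, the nuclease that trims Okazaki fragments, rose by 1.04 (limma adjusted p = 0.00504), but by 0.36 and without passing when cross-hybridising probe sets were allowed. The origin recognition genes Orc1 and Orc2 fell, by 0.69 and 0.52 (limma adjusted p = 0.0164 and 0.00616). The call of Orc1 ended without Pparg ldi/+ array 3 (-0.60) or without wild-type array 2 (-0.65) or 3 (-0.60). With Pparg ldi/+ array 3 alone the calls of Orc1 (-0.86) and Orc2 (-0.53) ended.

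Among 25 other regulators tested of 32 on the array, 5 rose and 3 fell, with a median of 0.016. Cdkn1c, the p57 inhibitor and an imprinted gene, had 222, 224 and 287 in Pparg ldi/+, against 607, 615 and 599 in wild type, and fell 2.33-fold (log2 -1.22, limma adjusted p = 0.000202). Myc, a growth-promoting transcription factor, had 662, 612 and 640 in Pparg ldi/+, against 286, 243 and 425 in wild type (log2 0.97, limma adjusted p = 0.00381). Neither gene's groups overlapped. Tfdp2, a partner of E2F factors, fell by 0.50, and Ccng2, an atypical cyclin linked to arrest, fell by 0.46. With Pparg ldi/+ array 3 alone the calls of Myc (0.97), Tfdp2 (-0.39) and Ccng2 (-0.52) ended, and that of Ccng2 ended with unscaled values (-0.40).

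Among 16 other p53 targets tested of 19 on the array, 4 rose and 5 fell, with a median of -0.058. Besides Cdkn1a, those that rose were Pmaip1, which promotes apoptosis and passed the brightness limit only through Pparg ldi/+ (log2 1.23, limma adjusted p = 0.00196), Plk2 (0.61), Mdm2, which restrains p53 (0.52), and Aen (0.41). Sesn2, a stress-induced sestrin, fell by 0.93 (limma adjusted p = 0.000285). The call of Plk2 ended without Pparg ldi/+ array 1 (0.53) and with its probe sets averaged (0.44), and with array 3 alone those of Plk2 (0.61), Mdm2 (0.45) and Aen (0.40) ended. The shares that rose in the mitotic, replication, regulator and p53 lists were 27.6%, 23.5%, 20% and 25%, beside 16.3% of all tested genes. The shares that fell were 6.90%, 5.88%, 12% and 31.2%, beside 16.4%, and the plot of pathway groups shows every gene.

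**Figure D4:**
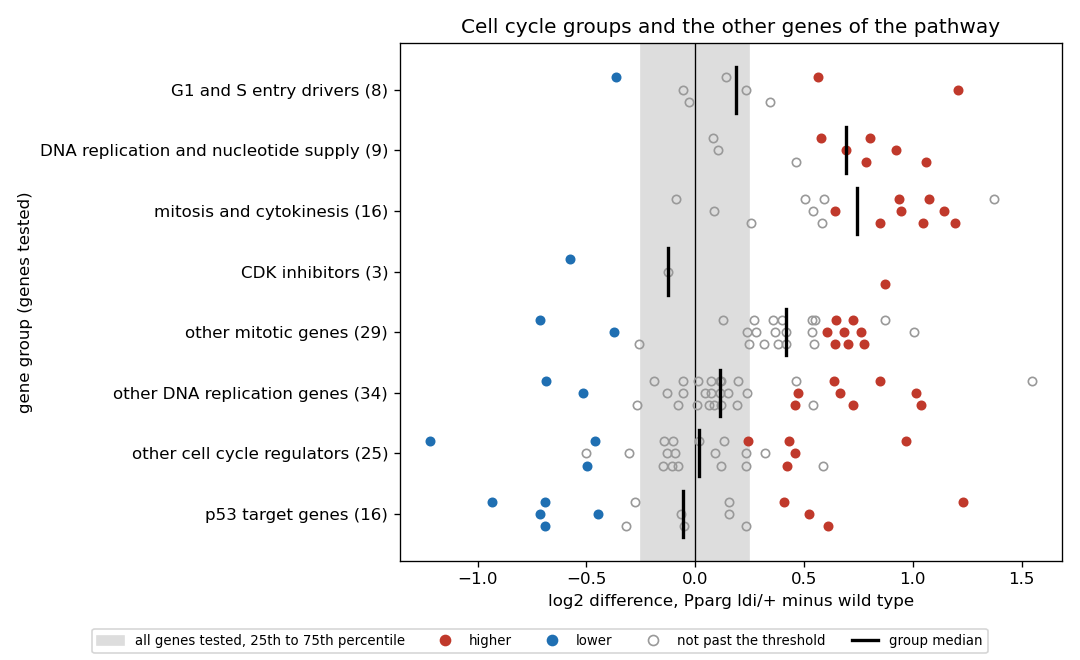
Log2 difference of each tested gene, Pparg ldi/+ minus wild type (x axis), for 4 groups of cell cycle genes and 4 lists of other pathway genes. Red points rose, blue points fell, open points did not pass, black bars are medians and the grey band is the 25th to 75th percentile of all tested genes (-0.25 to 0.25). The medians of the replication group (0.69), the mitotic group (0.74) and the other mitotic genes (0.42) lie outside the band.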

How the data were processed

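RNA from epididymal fat of 6 mice, 3 Pparg ldi/+ and 3 wild type, was hybridised to Affymetrix MOE430v2.0 arrays. The deposited values are signal intensity per probe set, 1 value for each of 45101 probe sets. MAS5 is named in the submitters' processing notes of 2 of the 6 samples. Its version, scaling target and detection calls were not given in the sources used here. Groups were taken from the sample labels. Precision is limited by the number of arrays.

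A trimmed mean of 500 (2% off each end) was given to every array, and log2(signal + 32) was taken. After 64 control probe sets were left out, 34945 probe sets had 1 gene symbol in the platform annotation, 932 had several and 9160 had none. RefSeq tables updated 34741 symbols and 204 were kept. The brightest probe set stood for a gene, leaving out those marked as cross-hybridising (x_at) where another existed. Genes below the median brightness of all probe sets (log2 7.46) were not tested. The genotypes were compared with limma 3.58.1 (lmFit and eBayes with an intensity trend) in R 4.3.3, two-sided, with Benjamini-Hochberg adjustment, after tests on simulated data. SDs are of scaled signals.

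The genes and lists were chosen with earlier results of these data known. All 44 genes are accounted for. From each other pathway list, the 2 tested genes with the smallest p and those that passed against the direction of the most were named. Alternatives covered the offset, scaling, brightness limit, probe set, variance model, threshold, replicate block, and arrays left out.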

Additional observations from a re-analysis of the deposited data

How the results depend on the processing

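The direction and side of the threshold of the cell cycle genes called were the same with 16 or 100 added before log2, a floor of 32, and cross-hybridising probe sets allowed (19 of 19 calls each). The number of members that rose was 10 with no brightness limit, 9 among the brighter 30% of probe sets, 11 with a gene's probe sets averaged, 8 at an adjusted p under 0.01 and 2 with Pparg ldi/+ array 3 alone. The number that fell was 1 with unscaled values, with the mean of probe sets, at 0.01 and with array 3 alone. Calls among G1 genes numbered 1 at 0.01 and with array 3 alone, and among replication genes 1 with array 3 alone. Mitotic calls numbered 3 of 20 tested with no brightness limit and 1 of 1 tested among the brighter 30%. They numbered 5 without the intensity trend, 3 of 11 tested with the mean of probe sets, and 2 at 0.01. No mitotic gene was called with array 3 alone. Calls among CDK inhibitors numbered 1 with no limit, no trend, the mean of probe sets, 0.01 and array 3 alone. Other mitotic genes gave 4 calls among the brighter 30% and 4 with the mean of probe sets. At 0.01 in limma they gave 0, with 12 higher and 2 lower at an unadjusted p under 0.05. All 11201 tested genes gave 2407 higher and 2392 lower at that unadjusted limit. No other mitotic gene was called with array 3 alone. Other replication genes gave 1 among the brighter 30%, 3 at 0.01 and 2 with array 3 alone, other regulators 5 at 0.01 and 1 with array 3 alone, and p53 targets 4 at 0.01 and 2 with array 3 alone. Over all genes, 1085 rose and 1153 fell at 0.01, and 730 rose and 886 fell with array 3 alone. Fewer genes are tested under the brighter limit, fewer arrays enter with array 3 alone, and 0.01 is a stricter threshold. The brighter limit left 17 members tested, of which 9 rose, and 1 mitotic gene, 6 other mitotic genes and 12 other replication genes. Of all genes tested, 18.7% rose under that limit, 9.73% with no limit, 15.1% with the mean of probe sets and 9.69% at 0.01. Averaging probe sets also leaves fewer members tested (30). Of the 19 calls, 14 were still tested under that setting and 12 stayed the same. The cause of the other changes was not tested.

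With the array number as a replicate block, 13 members rose and 2 fell, with 5 mitotic calls, 1 call among CDK inhibitors and 6 among other mitotic genes. Deviations of same-numbered arrays correlated at -0.13, -0.086 and -0.095, which shows no sign of pairing by number. This check cannot exclude that same-numbered mice shared a litter, and such pairing was not tested.

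Leaving out each array in turn gave 10 to 20 members that rose and 1 to 2 that fell, with 1 to 3 G1 calls, 5 to 7 replication calls, 3 to 11 mitotic calls and 1 to 2 calls of CDK inhibitors. It gave 2 to 14 calls among other mitotic genes, 6 to 10 among other replication genes, 6 to 9 among other regulators and 6 to 9 among p53 targets. Over all genes 1290 to 1706 rose and 1447 to 1678 fell. The members' median log2 difference was 0.40 to 0.81.

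Signs turned in genes that did not pass. Ccnd2 was at 0.034 under quantile normalisation and 0.024 unscaled, Ccnd3 at 0.30 with the mean of probe sets and 0.0097 with array 3 alone, Tpx2 at 0.13 and 0.051 under the same settings, and Ube2c at -0.048 with array weights. Leaving out an array gave ranges of -0.12 to 0.040 for Ccnd2, -0.12 to 0.020 for Ccnd3, -0.10 to 0.36 for Ccne1, -0.00044 to 0.22 for Rrm1, -0.20 to 0.092 for Tpx2, -0.18 to 0.39 for Ube2c and -0.27 to 0.038 for Cdkn1b.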
